A study of Mus musculus with 27 samples.

Results

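The mouse forelimb bud was followed between 2 stages: 3 libraries of early forelimb buds (early FLBs) were compared with 3 libraries of forelimb buds of embryonic stage E10.5 (E10.5 FLBs), which together were 6 of the 27 libraries of the series. Each library was assigned to its stage by its labels and not by a measured value. The study set limb-bud-like tissue grown from mouse embryonic stem cells beside hindlimb buds (HLBs), other embryonic tissues and these FLBs. Both FLB groups came from embryos of the Slc:ICR strain, and their characteristics name no allele, transgene, treatment or cell sorting for them. The buds were cut off whole from a small number of embryos, so that an embryo may have given tissue to more than 1 library, and p-values measure the spread between these libraries, which may be technical. The labels place the early FLBs at E10.0, whereas the legends of the study place them somewhat before that day, and they are called early FLBs here. Whole buds hold mesenchyme, ectoderm, vessels, blood and immigrant cells, and fewer cells of a type and less RNA per cell cannot be told apart in any value below.

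The forelimb bud grows out of the lateral plate mesoderm under 2 signalling centres. The apical ectodermal ridge (AER) at the distal edge makes FGFs that keep the mesenchyme growing, and the zone of polarizing activity at the posterior margin makes SHH, which patterns the bud from thumb to little finger. Retinoic acid acts on the proximal part, the genes at the 5′ ends of the Hoxa and Hoxd clusters come on later and more distally, and the first cartilage condensations, tendon progenitors and muscle precursors appear within the bud during this period.

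The early FLB libraries held 21010413 to 22142335 reads on genes and the E10.5 FLB libraries 5543755 to 5908845 reads, so that 3 reads corresponded to 0.135 to 0.143 counts-per-million (CPM) in the former and to 0.508 to 0.541 CPM in the latter. The depths are those at which the low values of each library became whole reads. Values that were not whole to within 0.1 read made up 4.93 to 5.25% of those below 1000 reads in the early FLBs and 0.705 to 0.757% in the E10.5 FLBs. Early HLBs were at 5.02 to 5.53%, and every remaining group of the series was at 0.939% or less. Depth and this share thus followed stage in every FLB library. A difference in how the libraries were made or processed therefore cannot be told apart from stage in any gene. Of the 291 genes not whole in every early library and in no E10.5 library, 95.9% overlapped a gene on the other strand, against 18.2% of all 23279 genes listed. Within a group the log2 values of the libraries correlated across genes with r = 0.995 to 0.996 in the early FLBs and 0.991 to 0.992 in the E10.5 FLBs, and no 2 libraries were duplicates. Replicate 3 of the early FLBs stood apart from the other two in several gene groups, and the calls that changed without it are given for the genes described. All 8 markers of limb bud mesenchyme were present, among them Tbx5, the transcription factor of the forelimb, at 101, 95.7 and 97.5 CPM in the early FLBs and 156, 167 and 174 CPM in the E10.5 FLBs. The hindlimb factor Tbx4 was at 0.884, 0.713 and 0.685 CPM and then 12.5, 12.1 and 12 CPM. Its partner Pitx1 was at 6.5, 5.19 and 11.5 CPM and then 1.04, 0.674 and 0.884 CPM. Each of these hindlimb genes was thus detected at both stages, Tbx4 rising and Pitx1 falling.

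Of 12829 genes tested, 2354 (18.3%) were higher and 2960 (23.1%) lower in the E10.5 FLBs, 41.4% in all (limma, adjusted p below 0.001). A change of at least 2-fold beside the same threshold was seen in 924 genes upwards (7.2%) and in 551 downwards (4.29%), and in 69.4% of genes the 3 libraries of one stage did not overlap those of the other. These shares are the background against which the counts of each gene group below are to be read. Values are scaled CPM, in which the libraries were set to a common level by trimmed means of log ratios, and fold changes are on the log2(scaled CPM + 0.5) scale, which understates the change of low genes. The balance of directions depended on that scaling: 44.3% of the calls were upward, and 67.0% with the CPM as deposited, which raised the median of all genes from −0.03 to 0.14. Where the calls of a gene group moved with the scaling by over 1.5 times, both are given. Of the genes called higher, 233 were below 1 CPM in every early library and were tested only because of their E10.5 level, and 107 of the genes called lower were below 1 CPM in every E10.5 library. Such genes had to differ to be tested, and their number is given beside each list that holds any. A number in parentheses after a gene is its log2 fold change, E10.5 against early FLBs, with its standard error after the ± sign.

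Among genes whose higher group averaged 16 CPM or more and that had no annotated neighbour on the other strand, the largest rises included 3 distal Hoxd genes and the largest falls Lin28a and 4 Hoxb genes. Hoxd12, which patterns the digits and the lower arm, was at 0.208, 0.102 and 0.0527 CPM in the early FLBs, 7 reads in all, and 101, 90.6 and 98.1 CPM in the E10.5 FLBs (log2 fold change 7.29 ± 0.15, adjusted p = 4.52e-16). The odd-skipped factor Osr2 went from 0.468, 0.611 and 0.105 to 32.3, 31.5 and 33.4 CPM (5.25 ± 0.20). The gap junction gene Gjb2 went from 0.624, 0.509 and 0.474 to 33.5, 34.7 and 40.8 CPM (5.15 ± 0.16). In each of these genes the early libraries lay near the level of a few reads and all 3 later libraries far above them. Others among the 12 largest rises were Pmaip1, a target of p53 that promotes apoptosis (4.97), the glutamate receptor subunit gene Gria2 (4.54), the secreted factor gene Fibin (4.4), Islr, which marks connective tissue progenitors (3.92), Serinc2 (3.91) and the unnamed transcripts 2610203C20Rik (5.26) and 5930403L14Rik (4.0). Pmaip1 was at 1.92, 4.84 and 2.9 and then 124, 100.4 and 109 CPM. Its call was lost without early replicate 3 (adjusted p = 0.00231), and that of 5930403L14Rik without early replicate 2 or any 1 of the E10.5 libraries (adjusted p of up to 0.00224).

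Lin28a, whose protein blocks maturation of the let-7 miRNAs, was at 438, 457 and 435 CPM in the early FLBs and at 7.12, 13.6 and 9.37 CPM in the E10.5 FLBs, 43.4-fold lower on the scale with the added 0.5 (log2 fold change −5.44 ± 0.25, adjusted p = 5.22e-05). Protogenin, encoded by Prtg, a surface protein of early mesoderm and neural tissue, was at 382, 338 and 408 and then 22.2, 19.5 and 18.2 CPM (−4.2 ± 0.08). No library of either stage overlapped those of the other in these genes, as the choice of genes by size required. Other large falls included those of Hand1, a bHLH factor of the lateral plate (−4.49), the endocytic receptor gene Lrp2 (−4.36), the uroplakin gene Upk3b, a marker of mesothelium (−3.88), Wfikkn1, which encodes a secreted inhibitor of myostatin (−3.86), Amph (−3.66) and the Hox genes described below. Hand1 was highest in replicate 3 of the early FLBs, at 29.5, 26.5 and 53.2 CPM, against 1.22, 0.674 and 1.41 CPM later.

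**Figure D1:**
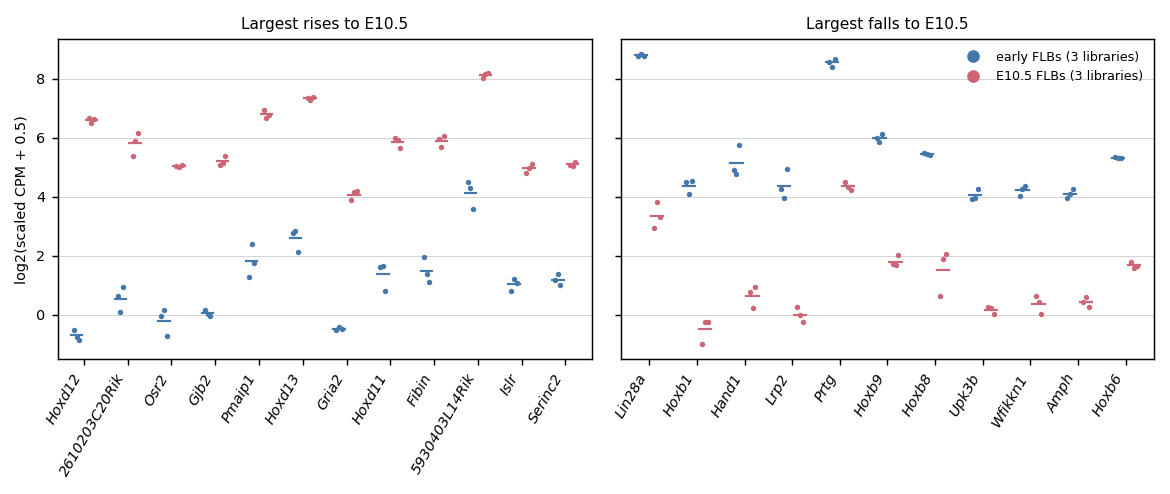
Level in each library, as log2(scaled CPM + 0.5) on the vertical axis, of the 12 genes with the largest rise (left) and 11 of those with the largest fall (right) among those without an annotated neighbour on the other strand. Blue and red points are the 3 early and 3 E10.5 FLB libraries, and short lines their means. In each of the 23 genes, all 3 points of one stage lie apart from all 3 of the other, as the choice of genes required.

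The posterior Hox genes, those of groups 8 to 13 of the Hoxd cluster and 9 to 13 of the Hoxa cluster, differed in size and sign of change within each cluster. Of 10 tested, 5 rose and 1 fell, with a median log2 fold change of 2.66, and 2 of the rises, Hoxd12 and Hoxa13, were below 1 CPM in every early library. Hoxd13, the gene at the 5′ end of its cluster, was at 6.39, 6.72 and 3.9 CPM and then 161, 154 and 168 CPM (log2 fold change 4.74 ± 0.19, adjusted p = 7.59e-07). Hoxd11, active in the forearm, was at 2.6, 2.65 and 1.26 and then 62.9, 59.6 and 50.2 CPM (4.48 ± 0.21). Hoxd12 is given above. Further 3′, Hoxd10 was at 49.6, 54.6 and 26.5 and then 75.7, 79.3 and 69.5 CPM, a difference that did not pass the test (log2 fold change 0.84 ± 0.32, adjusted p = 0.0825). Hoxd9 stood at 185, 200.04 and 141 and then 61.8, 75.9 and 73.2 CPM (log2 fold change −1.3 ± 0.16, adjusted p = 0.00113). Hoxd8 fell from 61.4, 70.8 and 51.9 to 20.5, 21.2 and 20.9 CPM (−1.52 ± 0.09). The sign of the log2 fold change thus turned between Hoxd9 and Hoxd10.

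In the Hoxa cluster, Hoxa13, needed for the hand plate, was at 0.052, 0.153 and 0.0527 CPM in the early FLBs, 5 reads in all, and at 17, 13.8 and 15.7 CPM in the E10.5 FLBs (log2 fold change 4.77 ± 0.20, adjusted p = 1.72e-12). Hoxa10 rose from 22.8, 29 and 15 to 186, 201 and 181 CPM (3.11 ± 0.27), a call that was lost without early replicate 1 or any 1 of the E10.5 libraries (adjusted p of up to 0.00482). Hoxa11, which acts in the forearm, was at 24, 25.1 and 11.8 and then 92.6, 103 and 81 CPM (log2 fold change 2.22 ± 0.35, adjusted p = 0.00518). Hoxa9 was at 38.9, 43.8 and 29.6 and then 46.5, 52.9 and 53.2 CPM (log2 fold change 0.45 ± 0.13, adjusted p = 0.0141). Neither of the latter pair passed the test. In 9 of the 10 genes, Hoxa13 excepted, replicate 3 had the lowest early value. Without that library Hoxa11 (1.88, adjusted p = 2.24e-13) and Hoxd10 (0.52, adjusted p = 5.87e-06) were called higher and Hoxd9 (−1.45, adjusted p = 1.36e-11) lower, so that 7 of the 10 rose and 2 fell. Hoxa9 was called higher without early replicate 2. The part of this library in the results was not tested further.

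The more 3′ Hox genes, those of groups 1 to 8 apart from Hoxd8, together with Hoxb9, moved the other way. Of 23 tested, 20 were lower and 0 higher by limma, where 1 was higher at an unadjusted p below 0.05, and the median was −1.80. Among the falls, Hoxb1 and Hoxd1 were below 1 CPM in every E10.5 library. Hoxb1, the most 3′ gene of its cluster, was at 22.1, 16.8 and 22.5 CPM and then at 0, 0.337 and 0.354 CPM, 4 reads in all (log2 fold change −4.87 ± 0.22, adjusted p = 8.47e-12). Hoxb9 fell from 63.2, 57.9 and 68.9 to 2.78, 2.69 and 3.54 CPM (−4.19 ± 0.12). Hoxb6 fell from 40.6, 38.9 and 39.4 to 2.95, 2.53 and 2.65 CPM (−3.65 ± 0.12). These falls included all 9 tested genes of the Hoxb cluster. Hoxb8 was at 44.1, 43.2 and 42.2 and then 1.04, 3.2 and 3.71 CPM (log2 fold change −3.92 ± 0.42, adjusted p = 0.000778), and the call was lost when any library other than replicate 1 of the E10.5 FLBs was left out, with an adjusted p of up to 0.00457. Hoxd1 (−3.78) fell to a similar extent as Hoxb6 and Hoxb8. Other genes of the Hoxb cluster fell less, with values from −2.52 at Hoxb5 to −1.26 at Hoxb3. Smaller falls were seen in Hoxa5 (−1.07), Hoxc5 (−1.44) and Hoxc6 (−0.72). Hoxa2 (−0.36 ± 0.14), Hoxa3 (−0.35 ± 0.10) and Hoxa6 (0.71 ± 0.21) did not pass the test. Among the genes that mark hindlimb or caudal levels, Hoxc9 fell from 4.31, 5.14 and 5.0 to 0.521, 1.01 and 1.06 CPM, Hoxc10 rose from 0.104, 0.153 and 0.105 to 1.22, 1.52 and 1.77 CPM, the latter 26 reads in all, and Hoxc11 was listed at 0 in all 6 libraries. With Tbx4 (log2 fold change 3.34 ± 0.18, adjusted p = 3.85e-11) and Pitx1 (log2 fold change −2.52 ± 0.25, adjusted p = 1.89e-07), 2 of the 4 tested hindlimb genes rose and 2 fell. Both that rose, Tbx4 and Hoxc10, were below 1 CPM in every early library.

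**Figure D2:**
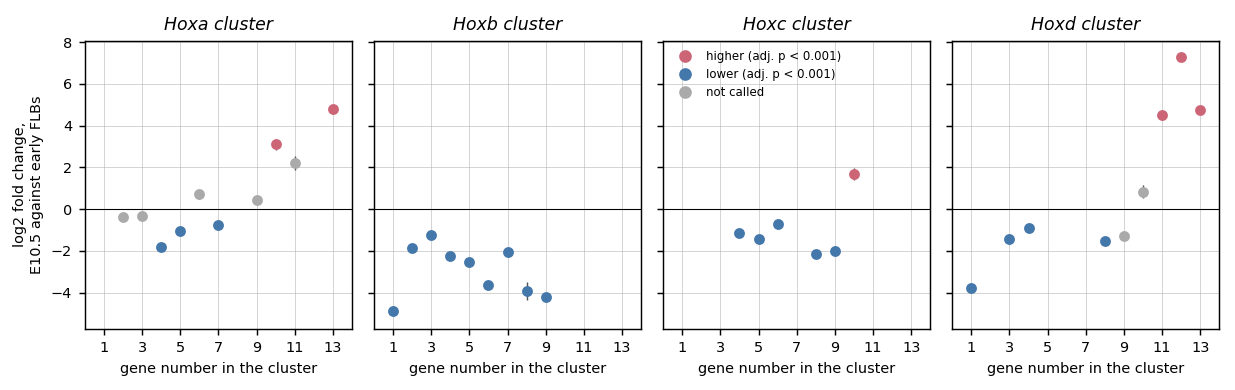
Log2 fold change between early and E10.5 FLBs (vertical axis) against the gene number within the Hoxa, Hoxb, Hoxc and Hoxd clusters (horizontal axis). Points are genes, bars are standard errors and colours give the call. In the Hoxd panel the values run from −3.78 at Hoxd1 to 7.29 at Hoxd12, whereas all points of the Hoxb panel lie below 0.

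In the SHH pathway the ligand Shh and the targets Gli1, Ptch1 and Hhip rose. Of 17 tested members, 9 were higher and 2 lower, with a median of 1.01. With the CPM as deposited Smo and Gas1 were called higher as well and 1 member was lower in place of 2, as without replicate 1 or 2 of the E10.5 FLBs. Shh, the ligand made in the zone of polarizing activity, was at 1.14, 0.509 and 0.105 CPM in the early FLBs and 12.2, 12.6 and 11.7 CPM in the E10.5 FLBs (log2 fold change 3.66 ± 0.29, adjusted p = 1.81e-07). The 3 early libraries differed among themselves, with 34 reads in all, and replicate 3 was the lowest. Gli1, a transcriptional target and mediator of the pathway, rose from 4.73, 3.46 and 3.53 to 48.8, 51.4 and 51.4 CPM (3.54 ± 0.12). Ptch1, the receptor and also a target, went from 32.4, 28.2 and 28.3 to 70.7, 74.4 and 70.9 CPM (1.27 ± 0.07). The decoy receptor Hhip (1.76), a target as well, rose with it. The co-receptors Boc (1.66) and Cdon (0.36) rose too, while Gas1 did not pass the test (0.16 ± 0.04). The transducers were nearly level: Smo stood at 311, 314 and 299 and then 318, 301 and 309.8 CPM (0.01 ± 0.04), with Sufu at −0.01 ± 0.06 and Gli3, which in its repressor form opposes SHH, at −0.14 ± 0.09, and Gli2 fell slightly (−0.33 ± 0.06), which was not called without replicate 1 or 2 of the E10.5 FLBs (adjusted p of up to 0.00176). Grem1, the BMP antagonist that links SHH to the AER, was at 9.2, 11.4 and 5.11 and then 23.4, 31.5 and 24.6 CPM (log2 fold change 1.63 ± 0.30, adjusted p = 0.00473), and without early replicate 2 or 3 it was called higher (without replicate 3, 1.32, adjusted p = 4.59e-08). Prdm1, a repressor found in the posterior bud and ridge, was the clearest fall of the group, from 35.9, 33.4 and 34.1 to 7.12, 6.4 and 8.66 CPM (−2.16 ± 0.11).

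Members of the FGF pathway did not move together. Of 16 tested, 4 rose and 5 fell, and the median was −0.13. Fgf10, the mesenchymal ligand that induces the ridge, fell from 71.4, 72.8 and 65.5 to 32.1, 33.8 and 32.2 CPM (log2 fold change −1.08 ± 0.07, adjusted p = 2.91e-10). Fgf8, the main ridge ligand, stood at 28, 34.9 and 25.4 and then 17.4, 24.2 and 21.7 CPM and did not pass the test (log2 fold change −0.47 ± 0.14, adjusted p = 0.00918). The ridge ligand Fgf9 rose from 2.55, 2.34 and 3.0 to 5.73, 5.05 and 8.31 CPM (1.11 ± 0.20). Fgf4, which responds to SHH and Grem1, was too low to be tested, at 0, 0.0509 and 0.0527 CPM in the early FLBs, 2 reads in all, and 1.22, 1.85 and 0.884 CPM later, 23 reads in all. Among the receptors, Fgfr1, that of the mesenchyme, rose from 223, 225 and 208 to 346, 367 and 381 CPM (0.74 ± 0.05). Fgfr2 fell from 139, 129 and 169 to 84.7, 88.7 and 90.7 CPM (−0.72 ± 0.08). Fgfr4 rose (1.3) and Fgfr3 did not pass the test (0.14 ± 0.16). The targets and feedback inhibitors were split, with Spry2 higher (0.66), Spry1 (−0.53), Spred1 (−0.40) and Spred2 (−0.47) lower, and Dusp6 (0.26 ± 0.06), Etv4 (−0.29 ± 0.07) and Etv5 (−0.14 ± 0.06) not called. Etv4 was called lower without early replicate 3 (−0.33, adjusted p = 0.000604) and Dusp6 higher without early replicate 2.

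Markers of the ridge and surface ectoderm were mostly lower: of 29 tested, 18 fell and 5 rose, the median was −0.51, and their summed level went from between 916 and 1089 CPM in the early FLBs to between 647 and 670 CPM in the E10.5 FLBs. The ridge factor Sp6 fell most, from 71.3, 86.3 and 88.1 to 16.5, 17 and 15.4 CPM (log2 fold change −2.29 ± 0.09, adjusted p = 4.51e-13). Sp8, which acts with it, fell from 30.8, 37.3 and 38.7 to 12.5, 11.3 and 10.6 CPM (−1.59 ± 0.10). Wnt7a, the dorsal ectoderm signal, fell from 32.2, 32.9 and 42.5 to 8.16, 7.07 and 8.31 CPM (−2.12 ± 0.12), and the keratins of simple epithelium Krt8 (−1.87) and Krt18 (−1.27) fell as well. General epithelial genes fell less, Cdh1 with a log2 fold change of −0.31 ± 0.07 and Epcam of −0.46 ± 0.08, and Trp63, the regulator of stratified epithelium, fell between these and the keratins (−0.71 ± 0.07). Against this trend the basal keratin Krt5, from 24.9, 32.5 and 20.5 to 86.3, 74.6 and 92.1 CPM (1.7 ± 0.18), rose. Krt14 rose from 3.12, 3.0 and 3.21 to 15.5, 14 and 16.4 CPM (2.13 ± 0.14), as did Grhl3 (1.03), a factor of barrier formation. Some of these calls rested on all 6 libraries. The 5 rises became 3 without early replicate 1 or without replicate 1 or 3 of the E10.5 FLBs, which ended the call of Krt5 (adjusted p of up to 0.00324). Krt8 was not called without early replicate 2 or any 1 of the E10.5 libraries (adjusted p of up to 0.0048), and Cdh1 was called without replicate 2 of the E10.5 FLBs and in no other fit that left out 1 library (adjusted p of up to 0.00593). Epcam lost its call without replicate 1 of the E10.5 FLBs (adjusted p = 0.00102).

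In the BMP pathway 4 of 19 tested members rose and 2 fell, with a median of 0.03, and without early replicate 3 the counts were 5 and 3. With a replicate block 4 were lower. The ligands Bmp4, at 84.9, 80.1 and 80.6 and then 63.2, 72.9 and 74.3 CPM, Bmp2 (0.25 ± 0.20) and Bmp7 (−0.37 ± 0.09) did not pass the test, but Bmp7 was called lower without early replicate 3 (−0.48, adjusted p = 1.28e-05). Gdf5, the ligand of future joints, was at 0.104, 0.153 and 0.0527 CPM, 6 reads in all, and then at 5.38, 4.38 and 5.83 CPM (log2 fold change 3.23 ± 0.23, adjusted p = 1.91e-09), so that it was tested only because of its E10.5 level. The receptor Bmpr1b, expressed in condensing cartilage, rose from 10.9, 8.96 and 9.22 to 17.2, 20.9 and 22.5 CPM (1.02 ± 0.12). Among targets the Id genes were level, with Id1 at −0.00 ± 0.07 and Id2 at 0.03 ± 0.05. The pseudoreceptor Bambi fell from 119, 127 and 132 to 47.2, 46 and 51.4 CPM (−1.38 ± 0.06). Msx1, the homeobox target in distal mesenchyme, fell from 199.97, 231 and 218 to 101, 111 and 105 CPM (−1.02 ± 0.06).

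The WNT pathway had 7 of 28 tested members higher and 9 lower, with a median of 0.08. The ligand Wnt5a, which directs outgrowth and cell polarity, rose from 87.3, 91.2 and 89.1 to 182, 178 and 174 CPM (0.99 ± 0.05). The ectodermal ligand Wnt6 fell (−1.05) and Wnt3, the ligand behind ridge formation, stood at 9.98, 10.4 and 13.2 and then 12.5, 10.8 and 12.4 CPM (0.09 ± 0.13). The secreted agonists went opposite ways. Rspo3 rose from 2.08, 2.14 and 1.79 to 28.1, 24.1 and 21.7 CPM (3.32 ± 0.15). Rspo2, made in the ridge, fell from 37.7, 38.1 and 34.4 to 16.7, 19.5 and 14.5 CPM (−1.11 ± 0.10). The nuclear effectors of canonical signalling fell. Lef1 went from 179, 181 and 167 to 59, 53.9 and 52 CPM (−1.67 ± 0.06). Tcf7 fell from 172, 199 and 176 to 46.7, 47 and 38 CPM (−2.04 ± 0.08). Among feedback targets, Nkd1 (−0.84), Znrf3 (−0.64) and Axin2 (−0.37) fell, and the secreted inhibitor Wif1 rose (1.37). The falls of 2-fold or more were those of Lef1, Tcf7, Wnt7a, Wnt6 and Rspo2.

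Aldh1a2 and Rdh10, enzymes that make retinoic acid, fell, and Cyp26b1, which removes it, rose. Of 18 tested genes of the retinoic acid and proximal list, 5 rose and 8 fell, with a median of −0.13. Aldh1a2, which makes retinoic acid in the flank and proximal bud, fell from 41.7, 43 and 46.8 to 6.6, 7.58 and 6.72 CPM (log2 fold change −2.57 ± 0.10, adjusted p = 7.2e-13). Rdh10, the preceding enzyme, fell from 51.7, 45.7 and 50.4 to 17, 12.8 and 17.7 CPM (−1.62 ± 0.11). Cyp26b1, which degrades retinoic acid in distal mesenchyme, rose from 53.1, 55.4 and 53.5 to 229, 227 and 222 CPM (log2 fold change 2.06 ± 0.05, adjusted p = 3.99e-15). The libraries of the stages were far apart in all 3 enzymes. Cyp26a1, of the same family, stood at 5.67, 4.69 and 7.64 and then 4.17, 3.37 and 3.36 CPM and was not called (log2 fold change −0.63 ± 0.19, adjusted p = 0.00705), and Cyp26c1 was too low to be tested. Rarb, a receptor that is itself a target of retinoic acid, fell from 60.5, 57.6 and 55.1 to 22.1, 21.6 and 27.1 CPM (−1.28 ± 0.09). Rarg rose from 97.2, 101 and 90.9 to 221, 210.5 and 218 CPM (1.16 ± 0.05). The proximal homeobox genes Meis1 (−0.65), Meis2 (−0.84) and Meis3 (−1.52) fell.

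Among limb patterning factors, 9 of 23 tested rose and 6 fell, with a median of −0.01. Shox2, the factor of the upper arm, rose from 9.67, 9.01 and 5.06 to 93.1, 101 and 93.5 CPM (log2 fold change 3.56 ± 0.25, adjusted p = 7.97e-05), with early replicate 3 again the lowest, and the call was lost without early replicate 2 (adjusted p = 0.00109). Pax1, a marker of the anterior proximal bud and shoulder girdle, was at 0.364, 0 and 0.211 CPM and then 46.7, 37 and 51.8 CPM (6.07 ± 0.20). Tfap2b was at 3.9, 2.8 and 6.32 and then 54.9, 46.5 and 52.2 CPM (3.48 ± 0.26). Both were within a few CPM of 0 in the early FLBs, and Pax1 was below 1 CPM in each. The anterior factor Alx1 fell from 47, 43.4 and 47.8 to 6.08, 5.56 and 7.25 CPM (−2.78 ± 0.11). Alx4 stood at 99.1, 107 and 89.6 and then 88.6, 97.5 and 105 CPM (−0.02 ± 0.07). Hand2, which acts upstream of Shh in the posterior bud, rose from 80.1, 84.1 and 104 to 158, 151 and 149 CPM (0.78 ± 0.09). Tbx2 rose (1.14) and its relative Tbx3 was not called (−0.04 ± 0.07). Of the dorsoventral genes, Lmx1b fell (−0.82 ± 0.10) and En1 did not pass the test (log2 fold change −0.84 ± 0.19, adjusted p = 0.0014) but was called lower without early replicate 3 (−0.92, adjusted p = 0.000877). Lhx2 and Lhx9, which relay the ridge signal, were lowest among the early libraries in replicate 3 and were not called, Lhx9 at 144, 154 and 90.3 and then 147, 169 and 154 CPM. Without that library Lhx2 was called lower (−0.71, adjusted p = 4.77e-09), and the list had 8 falls in place of 6. The limb patterning genes Sall4 (−1.78) and Zbtb16 (−1.01) fell, and Sall1 rose (1.01).

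**Figure D3:**
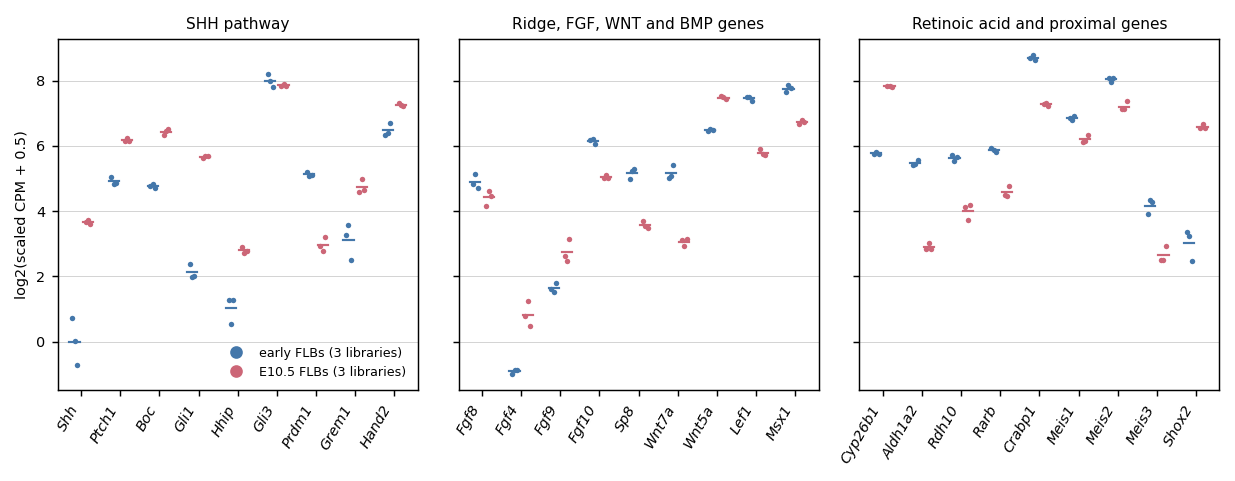
Level in each library, as log2(scaled CPM + 0.5) on the vertical axis, of members of the SHH pathway (left), of ridge, FGF, WNT and BMP genes (middle) and of retinoic acid and proximal genes (right). Blue and red points are the 3 early and 3 E10.5 FLB libraries, and short lines their means. Shh and Gli1 lie higher in the E10.5 FLBs with Gli3 nearly level, and Aldh1a2 and Rarb lie lower where Cyp26b1 lies higher.

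Genes of the cartilage programme rose. Of 16 tested, 13 were higher and 1 lower, the median was 1.57, and all 13 rises were at least 2-fold, Runx1 and Gdf5 being below 1 CPM in every early library. Sox9, the master regulator of cartilage, rose from 22.7, 24 and 23.9 to 128, 123 and 146 CPM (log2 fold change 2.46 ± 0.07, adjusted p = 2.63e-14). Its partner Sox5 rose from 14.6, 12.7 and 12.4 to 37.3, 38.1 and 39.1 CPM (1.5 ± 0.09). Sox6, the third of the trio, stood at 38.3, 34.2 and 40.9 and then 23.4, 20.9 and 32.9 CPM and did not pass the test (log2 fold change −0.57 ± 0.16, adjusted p = 0.0124), although it was called lower without replicate 3 of the E10.5 FLBs, which made 2 falls. Among matrix genes, Col2a1, the main cartilage collagen, went from 142, 153 and 155 to 282, 313 and 341 CPM (1.05 ± 0.06). Col9a1 rose from 12.3, 14 and 14.4 to 105, 107 and 111 CPM (2.95 ± 0.08). Col9a2 (3.77), Col9a3 (2.34) and Col11a1 (1.01) rose with them. Genes of mature cartilage were near 0 at both stages, with Acan at 0.468, 0.458 and 0.685 and then 0.521, 0.168 and 0 CPM and Matn1 at no more than 0.168 CPM. Runx2, the regulator of bone, rose from 1.51, 2.24 and 3.05 to 16.8, 17.3 and 23.2 CPM (2.85 ± 0.20). The link protein gene Hapln1 was the exception, falling from 122, 106 and 142 to 41.7, 43.6 and 36.4 CPM (−1.59 ± 0.10).

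Tendon and connective tissue genes rose in 9 of 22 and fell in 2, with a median of 0.56, and Osr2 was below 1 CPM in every early library. Scx, the factor of tendon progenitors, rose from 1.4, 1.68 and 1.53 to 43.2, 40.2 and 47.4 CPM (log2 fold change 4.44 ± 0.13, adjusted p = 3.59e-14). Mkx, which acts after it, rose from 2.65, 2.14 and 2.42 to 15.6, 11.6 and 12.6 CPM (2.24 ± 0.16). Tnmd, a gene of differentiated tendon, was listed at 0 in 5 of the 6 libraries. Osr1, a marker of muscle connective tissue, rose from 2.6, 2.7 and 2.48 to 32, 26.1 and 26.5 CPM (3.21 ± 0.13), as did Col12a1 (1.97) and Col1a2 (1.71). The call of Col1a2 was lost without early replicate 1 or replicate 3 of the E10.5 FLBs (adjusted p of up to 0.00155). Col14a1 fell from 34.3, 29.8 and 31.3 to 3.47, 2.86 and 3.71 CPM (−3.07 ± 0.13). Postn, the matrix gene periostin, was at 122, 90.9 and 218 and then 17.9, 17.3 and 19.6 CPM. The spread within the early group, with replicate 3 the highest, kept it from passing the test (log2 fold change −2.85 ± 0.37, adjusted p = 0.00266), and without that library it was called lower (−2.5, adjusted p = 4.67e-13). Without replicate 3, 12 of the list rose and 3 fell.

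Muscle precursor genes rose in 10 of 16 and fell in 1. Of the rises, 4 (Myod1, Myog, Myf5 and Cdh15) were below 1 CPM in every early library and were tested only because of their E10.5 level. Myod1, which commits cells to muscle, was at 0.052, 0 and 0 CPM in the early FLBs, 1 read in all, and at 7.47, 7.58 and 12.2 CPM in the E10.5 FLBs, 157 reads in all (log2 fold change 4.18 ± 0.24, adjusted p = 9.79e-11). Myog, which acts after it, was at 0, 0.0509 and 0 CPM, also 1 read, and then at 6.95, 7.41 and 7.78 CPM (3.93 ± 0.22). Myf5 was at 0.156, 0.153 and 0.0527 and then 4.86, 6.23 and 7.78 CPM (3.43 ± 0.24). These 3 myogenic factors were thus at the level of a few reads at most in each early library and above 4 CPM in each later one. A further myogenic factor of the list was below 1 CPM in all 6 libraries and was not tested. The genes of migrating precursors were already present. Pax3 stood at 12.3, 10.3 and 5.58 and then 17.4, 18.7 and 15.9 CPM (log2 fold change 0.91 ± 0.27, adjusted p = 0.0206). Lbx1 stood at 7.9, 6.98 and 3.9 and then 7.81, 5.56 and 6.19 CPM (0.10 ± 0.22). Neither passed the test, and both were lowest among the early libraries in replicate 3. Pax3 was called higher without early replicate 1 or 3 (without replicate 3, 0.60, adjusted p = 0.000517, and 11 rises). Meox2 rose from 5.98, 6.77 and 4.85 to 91.9, 76.8 and 80.3 CPM (3.72 ± 0.11). It is also expressed outside muscle. Des, a muscle filament gene also made in vessel walls, fell (−1.79).

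Markers of macrophages were nearly absent early and present later. The 13 listed summed to between 2.53 and 3.22 CPM in the early FLBs and between 28.6 and 33.4 CPM in the E10.5 FLBs. Of 9 tested, 8 rose, and all 8 were below 1 CPM in every early library, so that they were tested only because of their E10.5 level and their count is no support for the change. Csf1r, the receptor that macrophages need to survive, rose from 0.364, 0.255 and 0.158 to 6.43, 5.05 and 5.83 CPM (log2 fold change 3.05 ± 0.22, adjusted p = 2.47e-09). The mannose receptor gene Mrc1 rose from 0.208, 0.204 and 0.369 to 6.25, 5.39 and 6.01 CPM (3.07 ± 0.22). Cx3cr1, the fractalkine receptor, was at 0.156, 0.0509 and 0 and then 4.69, 4.38 and 4.6 CPM (adjusted p = 3.26e-09). C1qc, a complement gene, was listed at 0 in all 3 early libraries and at 2.78, 1.85 and 2.65 CPM later. Cd68, which other cells also express, did not pass the test (0.47 ± 0.24).

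Endothelial markers were split, with 3 of 20 higher and 9 lower and a median of −0.28. With the CPM as deposited 5 were lower, and also 5 without replicate 1 of the E10.5 FLBs. The pan-endothelial gene Pecam1 rose from 39.8, 43 and 36.9 to 54.7, 55.7 and 53.6 CPM (0.45 ± 0.07). Cdh5, the endothelial cadherin, stood at 85.2, 86.3 and 84.3 and then 97.9, 94.6 and 92.3 CPM and was not called (0.15 ± 0.05). The VEGF receptors Kdr (−0.73), Flt1 (−0.67) and Flt4 (−0.71) and the transcription factor Erg (−1.11) fell. Of 6 pericyte and smooth muscle genes tested, Pdgfrb (0.55) and Cspg4 (2.14) rose and Tagln fell (−2.14), while Acta2 stood at 22.5, 18.5 and 52.2 and then 5.56, 5.22 and 6.01 CPM with early replicate 3 the highest (log2 fold change −2.23 ± 0.43, adjusted p = 0.00899). Without that library Acta2 was called lower (−1.78, adjusted p = 2.78e-09), and Tagln lost its call without any 1 of the E10.5 libraries (adjusted p of up to 0.00386). Erythroid genes showed no call by limma among 15 tested, where 3 were lower at an unadjusted p below 0.05 and 1, Klf1, was called lower without early replicate 3. The embryonic globin gene Hbb-bh1 was at 1046, 1442 and 808 and then 994, 798 and 679 CPM (−0.39 ± 0.28), and globin genes share reads with near-identical copies.

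Lists of neighbouring tissues gave a mixed picture. Of 7 tested genes of flank and visceral mesoderm, 6 fell, of which Tbx20 and Lhx1 were below 1 CPM in every E10.5 library, and Osr1 rose. The endoderm and heart factor Gata4 fell from 14.9, 20.4 and 35.4 to 2.26, 2.19 and 2.83 CPM (−2.96 ± 0.28), and its call was lost without any 1 of the E10.5 libraries (adjusted p of up to 0.00171). Gata6 fell from 43.6, 45.1 and 61.5 to 7.29, 5.22 and 7.43 CPM (−2.82 ± 0.15). The 13 listed genes summed to 114, 113 and 188 CPM in the early libraries, replicate 3 being the highest. They summed to between 38.2 and 47.1 CPM later. The median of that list was −2.82, and −2.62 without early replicate 3, where the same 6 to 1 split held. Cardiac genes were low, with Tnnt2 at 1.51, 1.38 and 3.48 and then 0.174, 0.337 and 1.06 CPM and Myl7 at 1.14, 0.611 and 4.9 and then 0, 0.337 and 1.41 CPM, highest in replicate 3 of each stage and not called, although Tnnt2 was called lower without replicate 3 of the E10.5 FLBs. Of the 6 tested somite genes 3 rose and 2 fell, led by Pax1, which was below 1 CPM in every early library, and Tbx18 (2.47), both of which limb mesenchyme also expresses, and the segmentation genes Mesp2, Ripply1 and Ripply2 did not exceed 0.168 CPM. Of 8 neural tube markers, none reached the level for testing, with Sox2 at most at 0.842 CPM. Of 6 tested neural crest and glia genes 2 rose, Sox10 from 0.52, 0.458 and 0.421 to 2.6, 2.02 and 3.36 CPM (1.69 ± 0.24) and Erbb3 (0.63), and of 7 neuron genes 1 rose, Stmn2 (1.11). Sox10 was below 1 CPM in every early library, Erbb3 kept its call without replicate 1 of the E10.5 FLBs and in no other such fit (adjusted p of up to 0.00648), and Stmn2 lost its call without early replicate 2 or 3 or replicate 1 or 2 of the E10.5 FLBs (adjusted p of up to 0.00355). Of 10 gut and liver genes only Sox17, also an endothelial gene, reached the level for testing (−0.17 ± 0.19). The part of such neighbouring tissue in the results was not tested.

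Genes of the heterochronic programme, named for timing development, fell almost throughout: 13 of 14 tested were lower and 1 higher, with a median of −1.19. Beside Lin28a, its paralogue Lin28b fell from 339, 315 and 326 to 66, 71.6 and 58.5 CPM (log2 fold change −2.32 ± 0.06, adjusted p = 1.28e-13). Nr6a1, a nuclear receptor of trunk development, fell from 149, 149 and 159 to 8.68, 7.41 and 5.48 CPM (−4.33 ± 0.13). Trim71, a let-7 target, went from 86.1, 75.8 and 80 to 18.6, 20.4 and 21.2 CPM (−1.98 ± 0.08). Igf2bp1, another target, fell less, from 671, 652 and 658 to 388, 428 and 432 CPM (−0.67 ± 0.04). Hmga2, which is also targeted by let-7, rose slightly, from 1188, 1192 and 1098 to 1339, 1331 and 1322 CPM (0.20 ± 0.04), and was not called without early replicate 3 or replicate 1 or 2 of the E10.5 FLBs (adjusted p of up to 0.00275). Members of the list thus ranged from −5.44 to 0.20. The growth regulator Mycn fell from 222, 221 and 204 to 94.8, 98.2 and 101 CPM (−1.13 ± 0.05). Myc fell from 104, 99.6 and 93.3 to 35.8, 30.1 and 36.8 CPM (−1.52 ± 0.08).

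Genes of ribosome assembly in the nucleolus fell together: 23 of 24 were lower, 0 were higher by limma or at an unadjusted p below 0.05, and the median was −1.02. Nucleolin, encoded by Ncl, fell from 3422, 3394 and 3338 to 1395, 1398 and 1279 CPM (log2 fold change −1.32 ± 0.04, adjusted p = 2.44e-14). Npm1, nucleophosmin, fell from 4515, 4674 and 4513 to 2187, 2212 and 2027 CPM (−1.09 ± 0.04). Polr1a, the largest subunit of RNA polymerase I, fell from 207, 190.4 and 197 to 108, 98.3 and 104 CPM (−0.94 ± 0.05). Pes1 was the member that did not pass the test (log2 fold change −0.64 ± 0.12, adjusted p = 0.00294), and it was called lower without early replicate 2 or 3 (without replicate 3, −0.77, adjusted p = 6.14e-10). Genes of the cytosolic ribosomal proteins fell less, 61 of 74 with a median of −0.30, and 0 were higher by limma, with 1 at an unadjusted p below 0.05. Rplp0 went from 3079.9, 3335 and 3123 to 2074, 2072 and 2007 CPM (−0.63 ± 0.04). With the CPM as deposited only 27 of the 74 were lower and 3 were higher, so the counts of this group depended on the scaling. The signs of Rpl10 (−0.00 ± 0.04), Rps4x (−0.02 ± 0.04) and Rps15 (−0.16 ± 0.04) turned with it. Ribosomal protein genes have many near-identical copies in the genome, and Rpl26, Rpl30, Rpl34 and Rps27 varied widely within a group, Rps27 at 75.5, 236 and 222 CPM in the E10.5 FLBs.

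Genes of glycolysis fell by a larger margin. Of 23 tested in the glycolysis and hypoxia list, 16 were lower and 2 higher, with a median of −1.26. Ldha, which turns pyruvate into lactate, was at 3153, 3190.2 and 2985 CPM in the early FLBs and 876, 922 and 801 CPM in the E10.5 FLBs (log2 fold change −1.85 ± 0.05, adjusted p = 2.01e-13). Slc16a3, the transporter that exports lactate, fell from 279, 267 and 247 to 47.2, 44.8 and 54.1 CPM (log2 fold change −2.43 ± 0.07, adjusted p = 1.67e-13). Pgk1, phosphoglycerate kinase, fell from 1759.9, 1665 and 1589 to 652, 679 and 603 CPM (−1.37 ± 0.05). The falls ran along the pathway, from the glucose transporter Slc2a1 (−1.26) and hexokinase Hk2 (−1.59) through Pfkl (−1.37), Aldoa (−1.57), Tpi1 (−1.2), Gapdh (−0.81), Pgam1 (−1.42) and Eno1 (−1.51). Pdk1, which keeps pyruvate out of the mitochondria, fell too (−1.68). Other isozymes did not share the fall: Hk1 rose (0.54 ± 0.08), as did Pfkm (0.29 ± 0.06), which was not called without replicate 1 or 3 of either stage (adjusted p of up to 0.00343). With genes that overlap a gene on the other strand left out, 0 of the list were higher. Of the genes known chiefly as hypoxia targets, Bnip3 (−1.48) and Ndrg1 (−1.05) fell, while Vegfa, at 83.6, 78.2 and 70.7 and then 59.2, 65.3 and 65.2 CPM, and Egln3, at 11.5, 9.06 and 8.01 and then 8.16, 9.09 and 9.19 CPM, were not called. Without early replicate 3 Vegfa was called lower (−0.35, adjusted p = 0.000239). In a model over all 27 libraries, where the spread of other tissues enters, 6 of the list were called lower.

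Hypoxia-inducible factors and MYC bind short motifs that share the core ACGTG, and promoters were therefore searched for these letters. The 250 bases before the annotated start were read on both strands from RefSeq sequence of the GRCm38.p6 build, and 12 of the 21 glycolysis and hypoxia genes with a promoter held the core, 57.1%, against 25.4% of the 10128 tested genes with a promoter. Among the members called lower it was 8 of 15, 53.3%, so that the core was not more frequent in the genes that fell than in the whole list. It was found in 1 of 19 nucleolar genes and in 15 of 55 ribosomal protein genes. The longer CACGTG, which contains the core on both strands, was found in 3 of the 21, 1 of the 19 and 5 of the 55, against 10.1% of all. Stretches of the promoters of 3 of the genes that fell are shown to place the letters. Capitals mark each match on either strand, all 3 are on the plus strand, and the Ldha stretch holds CACGTG at 2 places. A match is a description and not evidence of binding.
Ldha, chr7:46845644-46845803, the 160 bases before the start: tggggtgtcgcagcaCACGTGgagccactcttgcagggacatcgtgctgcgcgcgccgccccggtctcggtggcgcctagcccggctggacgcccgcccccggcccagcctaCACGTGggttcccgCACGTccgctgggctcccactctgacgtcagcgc
Pgk1, chrX:106186940-106186999, from 160 to 101 bases before the start: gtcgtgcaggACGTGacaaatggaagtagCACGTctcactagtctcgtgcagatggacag
Slc16a3, chr11:120949007-120949066, the 60 bases before the start: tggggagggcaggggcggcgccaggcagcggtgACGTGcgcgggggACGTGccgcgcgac

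Cell cycle genes fell by small margins. Of 25 tested genes of G1 and S phase, 18 were lower and 0 higher by limma or at an unadjusted p below 0.05, with a median of −0.33. Ccne1, cyclin E, fell most, from 183, 185 and 174 to 104, 101 and 98.1 CPM (−0.84 ± 0.05). The replication helicase gene Mcm3 fell from 449.9, 461 and 464 to 320.1, 316 and 299 CPM (−0.56 ± 0.04). Of 25 genes of G2 and M phase, 13 fell and 1, the spindle gene Nusap1, rose (0.71 ± 0.05), with a median of −0.23. Cdk1 went from 302, 327 and 308 to 236, 241 and 233 CPM (−0.40 ± 0.04) and Top2a stood at 0.11 ± 0.04. With the CPM as deposited, 11 of the first group and 5 of the second were lower, and 1 of the first and 3 of the second were higher. In limma without trend and robust, 8 of the first and 1 of the second were lower, beside 1395 of all 12829 genes tested. Inhibitors of the cycle moved the other way, 7 of 10 higher and 1 lower with a median of 1.15. The 1 lower, Ccng1, was not called with the CPM as deposited, without early replicate 2 or without replicate 1 or 2 of the E10.5 FLBs. Cdkn1c, the imprinted inhibitor p57, rose from 142, 148 and 153 to 508, 497 and 534 CPM (log2 fold change 1.8 ± 0.04, adjusted p = 6.5e-15). The cyclin G2 gene Ccng2 rose from 24.7, 23.9 and 21.1 to 72.8, 76.4 and 76.6 CPM (1.68 ± 0.07). Btg1 (1.38) and Btg2 (1.84), which slow division, rose as well.

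Of 29 imprinted genes tested, 6 rose and 12 fell, with a median of −0.42. Leaving out genes that overlap a gene on the other strand left 3 rises and 5 falls. Dlk1, a secreted NOTCH ligand relative, fell from 439, 452 and 527 to 163, 149 and 171 CPM (−1.55 ± 0.07). Igf2r, which clears IGF2, fell from 422, 340.5 and 424 to 224, 209 and 225 CPM (−0.84 ± 0.08). Igf2 itself rose from 3641, 3724 and 3598 to 4702, 4628 and 4677 CPM (0.35 ± 0.03) and H19, its neighbour, was level at 0.03 ± 0.03. Cholesterol synthesis genes rose in 6 of 20 and fell in 0 by limma or at an unadjusted p below 0.05, with a median of 0.48. Insig1, a feedback regulator, went from 59.6, 69.9 and 60.1 to 91.5, 88.6 and 99.2 CPM (0.56 ± 0.07). Many members were highest among the early libraries in replicate 2, such as Sqle at 99.97, 136 and 110.1 and then 189.6, 176 and 193 CPM (log2 fold change 0.70 ± 0.11, adjusted p = 0.00115). With the CPM as deposited 12 of the 20 were called higher, and 14 without early replicate 2. Of 11 heat shock and chaperone genes 7 fell and 1 rose, with a median of −0.69. Hspd1, the mitochondrial chaperonin, fell from 2002, 2012 and 1843 to 793, 832 and 753 CPM (−1.3 ± 0.04). The stress-inducible Hspa1b was low in every library, at 0.624, 1.48 and 1.63 and then 1.56, 0.168 and 0.177 CPM.

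Immediate early genes, which respond to handling within minutes, rose in 4 of 13 and fell in 3, with a median of 0.04. Jun rose from 30.7, 26.1 and 36.9 to 57.8, 55.9 and 61.5 CPM (0.91 ± 0.10). Atf3 fell from 5.3, 7.13 and 7.74 to 0.868, 1.01 and 1.24 CPM (−2.22 ± 0.20). Fos did not reach the level for testing and stood at 0.78, 0.764 and 0.895 and then 8.86, 1.01 and 0.707 CPM, high in replicate 1 of the E10.5 FLBs alone. Of 5 sex-linked genes 0 were called by limma or passed an unadjusted p below 0.05. Xist, made from the inactive X of female cells, was at 313, 247 and 364 CPM in the early and 509, 837 and 329 CPM in the E10.5 libraries. The Y-linked Ddx3y was at 43.3, 34.4 and 34.9 and then 31.3, 14.6 and 50 CPM, so every library held RNA of both sexes in unequal shares.

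**Figure D4:**
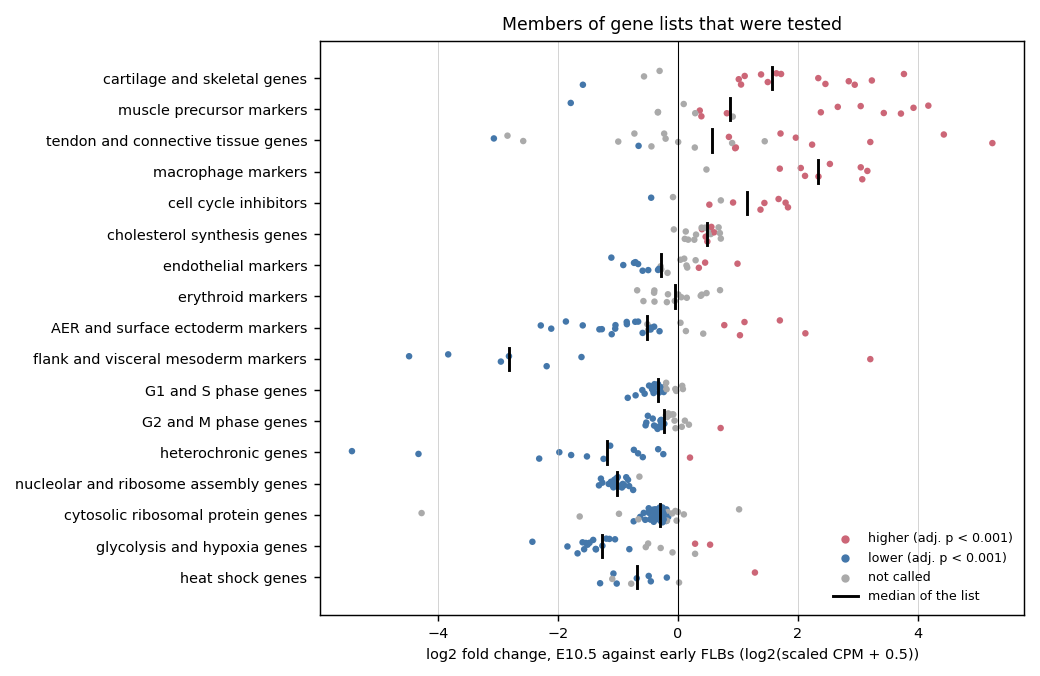
Log2 fold change between early and E10.5 FLBs (horizontal axis) of the tested members of each gene list (rows). Points are genes coloured by call and the black bar is the median of the list. Cartilage and cell cycle inhibitor lists, and the macrophage list, whose members were tested because of their E10.5 level, have their medians above 1, and the flank, nucleolar, glycolysis and heterochronic lists below −1.

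The same stages of HLBs were available, and the change in FLBs was set against them for the 23 genes described by size. The difference between the changes passed the test (limma interaction over 12 libraries, adjusted p below 0.05) in 20 of 23 genes, against 25.4% of all 13068 genes tested, and in each of the 20 the FLBs changed more in the same direction. These genes were chosen for a large change in FLBs, which favours that direction. Hoxd11 was at 36.4, 31.9 and 38.2 CPM in early HLBs and 36.9, 41.9 and 37.1 CPM in E10.5 HLBs, and the change in FLBs was larger by 4.36 ± 0.26 on the log2 scale (adjusted p = 3.82e-07). Hoxd13 was at 46.4, 56.5 and 48 and then 77.9, 70.3 and 74.4 CPM in HLBs, with a difference of 4.18 ± 0.22 (adjusted p = 5.1e-07). Both genes were thus well above the early FLB level in the early HLBs already. Lin28a was at 317, 430.5 and 413 and then 109.9, 125 and 92.9 CPM in HLBs, a difference of −3.62 ± 0.32 (adjusted p = 9.95e-05). The genes for which the difference did not pass were 2610203C20Rik (3.09 ± 0.96, adjusted p = 0.0532), Pmaip1 (1.21 ± 0.55, adjusted p = 0.15) and Hand1 (−2.18 ± 0.74, adjusted p = 0.0615). The legends of the study place the early HLBs later than the early FLBs, so the interval between stages differs between limbs and cannot be told apart from the limb. In 5 of the 23 genes a fit used only 2 E10.5 HLB libraries, since replicate 2 of that group listed whole chromosomes at 0 and its values there were left out.

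**Figure D5:**
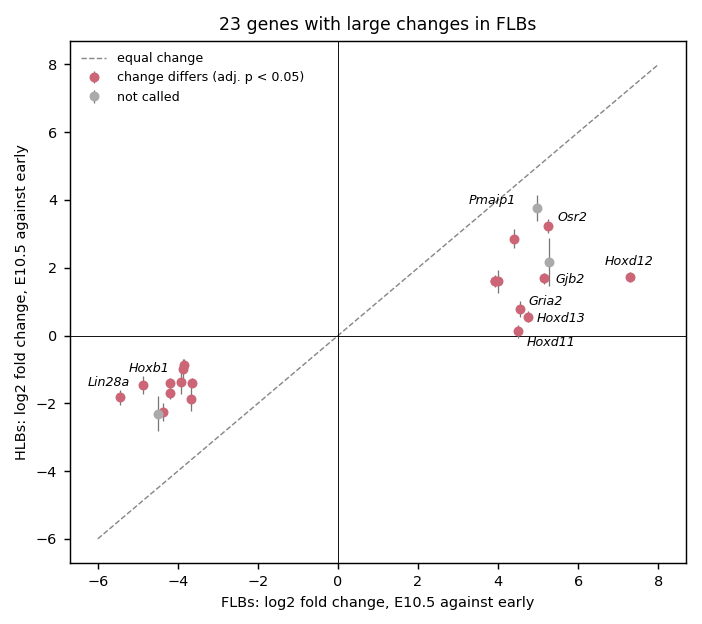
Log2 fold change from early to E10.5 in HLBs (vertical axis, bars are standard errors) against that in FLBs (horizontal axis) for 23 genes with large changes in FLBs. Colour tells whether the difference between limbs passed the test, and the dashed line marks equal change. Every point lies between the dashed line and 0 on the vertical axis, with Hoxd11 at 4.48 in FLBs and 0.12 in HLBs.

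Genes that overlap a gene on the other strand need care, because values in the early libraries were more often not whole there, and whether reads were assigned to strands in the same way in both groups was not tested. Among tested genes with a partner over 8 times stronger, 53 of 338 were higher and 50 lower, with a median of 0.05, against 1907 and 2318 of 10124 genes with no such overlap and a median of −0.02. Changes of over 8-fold were 8 falls and 2 rises among the 338, and 29 falls and 59 rises among the 10124. Some of the largest falls of all were thus of this kind. C230091D08Rik, opposite Ube3a, was at 29.9, 28.4 and 28.2 CPM in the early FLBs and at 0 in all 3 E10.5 libraries, and Peg3as, opposite the abundant Peg3, was at 31, 20 and 19.7 and then 0.868, 0.505 and 0.177 CPM. Omd, opposite Cenpp, was at 19.5, 16.4 and 16.4 and then 0.174, 0 and 0.177 CPM, and 9530082P21Rik, opposite Flywch1, at 37.1, 32 and 30.4 and then 1.22, 0.168 and 1.06 CPM. All 4 were high in the early HLBs too, with means from 14.6 to 40.9 CPM, and no higher than 1.94 CPM in any of the other groups of the series, so their falls cannot be told apart from a difference in strand handling. Of the genes described above, those overlapping a gene on the other strand, at any level, include Pax1, Scx, Shh, Gli1, Nr6a1, Shox2 and Runx2. Sox5, Msx1, Tcf7, Lmx1b, Slc16a3, Hspd1, Peg3, Hoxa3, Hoxa5, Hoxa6, Hoxa11 and Bmp4 are also among them. With all genes of this kind left out, 0 members of the glycolysis and hypoxia, G2 and M phase and heterochronic lists were higher. Of the muscle precursor list and the pericyte and smooth muscle list, 0 were then lower. The partner of Pax1, AI646519, was listed at 0 in the early FLBs and did not exceed 1.04 CPM later. The partner of Scx, Bop1, was at 161, 172 and 167 CPM and then 92.4, 94.5 and 92.5 CPM, falling while Scx rose.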

How the data were processed

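Whole FLBs of both stages were profiled by RNA-seq of total RNA with a stranded poly(A) kit. Per the labels and methods, the authors aligned reads to mm10 with HISAT2 2.0.4, estimated gene counts with Cuffdiff (the submitters' processing notes list Cufflinks 2.1.1, and the methods another version) and normalised them with edgeR 3.16.2; the values the authors deposited are CPM, with no reads per gene beside them. Here CPM were scaled by trimmed means of log ratios (30% of ratios and 5% of levels trimmed at each end). Genes that reached 1 CPM in 3 or more of 6 libraries were tested with limma 3.58.1 in R 4.3.3 (variance trend, robust) on log2(scaled CPM + 0.5), with Benjamini-Hochberg adjustment over all 12829 genes and an adjusted p below 0.001. The difference between FLBs and HLBs was an interaction term over 12 libraries, at an adjusted p below 0.05. Depth was read from the step that 1 read makes in each library.

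The 37 gene lists (666 entries, of which 653 were in the table and 578 were tested) and the pair of stages compared were chosen with earlier results of these data known. Genes were named if they belonged to a list or, by size, if they were among the 12 largest changes in a direction with a higher group averaging 16 CPM or more, values of the stages that did not overlap and no annotated neighbour on the other strand; those named otherwise were chosen after their values were seen. One of these falls and some listed genes are counted in their lists but not reported here. Gene positions matched RefSeq for 23007 of 23279 genes. The fit was tested on simulated data. Alternatives were other scalings, pseudocounts, filters, models and depths, and leaving out each library; tests on counts were not run because the reads behind the CPM are estimates, of which up to 5.25% below 1000 reads were not whole in a library. Precision covers counting error and the spread between libraries only.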

Additional observations from a re-analysis of the deposited data

Results flagged for a closer look

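Among the 23 genes named by size, the change from early to E10.5 in FLBs differed from that in HLBs, by the limma interaction term at an adjusted p below 0.05, in 20. Of all 13068 genes tested, 25.4% passed that threshold. The change in FLBs minus that in HLBs, on the log2 scale, was positive in 10 genes that rose: Hoxd12 (5.58), Osr2 (2.02), Gjb2 (3.45), Hoxd13 (4.18), Gria2 (3.76), Hoxd11 (4.36), Fibin (1.55), 5930403L14Rik (2.40), Islr (2.30) and Serinc2 (2.30). It was negative in 10 genes that fell: Lin28a (−3.62), Hoxb1 (−3.42), Lrp2 (−2.10), Prtg (−2.81), Hoxb9 (−2.49), Hoxb8 (−2.55), Upk3b (−2.89), Wfikkn1 (−3.0), Amph (−1.79) and Hoxb6 (−2.26). Each of these genes was chosen for the size of its change in FLBs, and the early HLBs are the later of the early groups by the legends of the study, so the limb, the interval between stages and the choice of genes cannot be told apart. No other explanation was tested.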

How the results depend on the processing

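Counts of genes higher and lower depended most on the threshold, the model and the scaling. At an adjusted p below 0.05 they were 3851 and 4471, and with a 2-fold change required 924 and 551. Limma without trend and robust gave 1376 and 1395, and all 27 libraries in one model 1439 and 1850. Some gene groups with small changes lost many calls in the former. There 14 of 74 cytosolic ribosomal protein genes were lower and 0 of 20 cholesterol synthesis genes higher. With the CPM as deposited 3503 were higher and 1722 lower, and 2 of the 5314 genes called had the opposite sign. Other scalings, pseudocounts, filters, thinning to equal depth and leaving out genes with a neighbour on the other strand kept both counts within 1.5 times. Without each library in turn 1935 to 2153 were higher and 2505 to 2727 lower. Of the named genes, 3 turned sign where the main or the alternative fit called them. All were ribosomal protein genes with the CPM as deposited: Rpl10 to 0.17, Rps4x to 0.15 and Rps15 to 0.0089. For the other log2 fold changes of named genes, 9357 values kept their side of the threshold, 683 lost the call and 165 gained it. Those 9357 include sign changes of genes near 0 that neither fit called, such as Smo (0.01), at −0.01 without early replicate 3. Of the changes named by size, 375 of 391 kept their call; Pmaip1, 5930403L14Rik, Prtg and Hoxb8 lost it under at least 1 alternative. All 46 alternatives of the interaction kept their side of the threshold. The cause of these changes was not tested.

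The deviations of same-numbered libraries from their group means correlated across genes with r = 0.019, 0.056 and 0.103. Each early library correlated best with its own number, but E10.5 replicate 1 with early replicate 2. Whether the replicate numbers pair the libraries cannot be told from such low values. With a replicate block 2347 genes were higher and 3028 lower. Tests with edgeR or DESeq2 on counts, which had been planned, were not run, because the deposited values are CPM made from estimated reads, of which up to 5.25% in the early and 0.757% in the E10.5 FLBs were not whole. Depth limits low genes in the E10.5 FLBs, where 3 reads are 0.508 to 0.541 CPM.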

Other observations

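Some genes that stood out belong to no list and were chosen after their values were seen. Among transcription factors, Bcl11a, a zinc finger repressor, rose from 7.8, 6.11 and 6.64 to 96.2, 89.7 and 101 CPM (3.72 ± 0.09), its paralogue Bcl11b from 3.02, 2.7 and 2.26 to 38, 29.8 and 39.4 CPM (3.52 ± 0.14), and Gsc, a homeobox gene of proximal mesenchyme, from 2.55, 2.95 and 2.11 to 25.7, 26.1 and 31.8 CPM (3.23 ± 0.14). Tbx15, a factor of limb skeleton, was at 31, 30.2 and 14.5 and then 286, 293 and 282 CPM (log2 fold change 3.56 ± 0.35, adjusted p = 0.000997 by limma), with early replicate 3 the lowest. Its call was lost without any 1 library other than that one (adjusted p by limma of up to 0.00687). Of single genes picked from the rest, the ephrin receptor gene Epha4 rose from 48.7, 46.6 and 50.5 to 175, 168 and 180.3 CPM (1.83 ± 0.05), the cadherin gene Cdh11 from 123, 125 and 105 to 397, 365 and 390.2 CPM (1.71 ± 0.06), Igf1 from 6.34, 5.3 and 6.58 to 55, 55.7 and 59.6 CPM (3.13 ± 0.10) and the p53 target Trp53inp1 from 8.79, 8.61 and 7.69 to 60.4, 57.6 and 60.1 CPM (2.76 ± 0.09). Wnt2 fell from 32.6, 30 and 47.4 to 2.08, 2.02 and 4.42 CPM (−3.52 ± 0.31), with early replicate 3 the highest, and Igdcc3 was at 795, 815 and 646 and then 226, 279 and 204 CPM (−1.67 ± 0.16). Without replicate 1 of the E10.5 FLBs Wnt2 was not called (adjusted p by limma = 0.00123), and Igdcc3 was called without replicate 2 of the E10.5 FLBs and in no other fit without 1 library.

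A few enzyme genes outside the glycolysis list were picked in the same way. The lactate dehydrogenase subunit gene Ldhb rose from 49, 66.7 and 53.7 to 252, 255 and 248 CPM (2.16 ± 0.10) where Ldha fell, and Pkm2, the symbol under which pyruvate kinase was listed, fell from 4496, 4495 and 4206 to 1911, 1922 and 1769.98 CPM (−1.24 ± 0.04). Bcat1, an aminotransferase gene, fell from 204, 252 and 214 to 63.6, 72.1 and 61.2 CPM (−1.76 ± 0.08), Psat1, of serine synthesis, from 275, 298 and 281 to 118, 114 and 114 CPM (−1.3 ± 0.05) and Mthfd1l, of mitochondrial folate metabolism, from 146, 163 and 164 to 52.8, 58.4 and 47.9 CPM (−1.57 ± 0.07).

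The liver gene Afp was at 5.2, 0 and 0.0527 CPM in the early FLBs, in replicate 1 alone, and at 0 in the E10.5 FLBs.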
